A study of Mus musculus with 6 samples.

Results

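Transcripts of 10 genes of inhibitory signalling in B cells were compared between 2 groups of arrays: the receptors Cd22, Cd72, Siglecg, Pecam1, Pirb, Lair1 and Cd5, and the phosphatases Ptpn6, Ptpn22 and Inpp5d. They were chosen by symbol, as receptors with immunoreceptor tyrosine-based inhibitory motifs (ITIMs) or related tails and the phosphatases that act with them, and they are 10 of the 19938 genes that could be named from a probe with a single symbol. Each of the 10 had 1 such probe. All 6 samples were pre-B cells of Balb/c mice aged 4 weeks that carried a Blnk knockout and had been transformed by BCR-ABL1, the kinase of Philadelphia chromosome-positive leukemia. In 3 samples the cells had been transduced with Blnk (also named Slp65 in the labels), and in the other 3 with pMIG, a retroviral vector that carries GFP. Cells with GFP were collected by sorting at 5 days from transduction, and total RNA of each sample was put on an Affymetrix array. The cells thus carry the knockout and the oncogene in both groups, and Blnk came back by transduction rather than from its own locus. Nothing in the labels says that replicates are independent cultures or mice, and p-values here therefore rest on a spread that may be only technical.

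Blnk is the adaptor that joins the B cell receptor, or the pre-B cell receptor, to the enzymes that raise calcium. Inhibitory receptors work against that signal. When the receptor fires, a kinase phosphorylates the tyrosine of an ITIM in the tail of Cd22, Cd72 or a relative, the phosphorylated motif recruits Ptpn6 (SHP-1) or Inpp5d (SHIP-1), and these take phosphate off signalling proteins or off the membrane lipid PIP3. Ptpn22 dephosphorylates SRC-family and SYK-family kinases in the cytoplasm.

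Blnk transcript itself was higher in every Blnk sample. Its intensity was 2714, 3342 and 3022 in Blnk samples, against 972, 926 and 1013 in pMIG samples (log2 fold change 1.64, SE 0.0914; limma adjusted p = 0.000101). The signal in pMIG samples lay well above the array medians of 67.0 to 70.0, and since the labels do not locate the probe within Blnk, it is no check of the knockout. B-lineage markers were present in both groups, as in Pax5, a factor of the lineage, which averaged 2975 ± 171 in Blnk and 3084 ± 63.7 in pMIG samples (SD, n = 3 each). They did not stand still: of 10 measured, 2 rose and 1 fell, where 2.51% of all genes rose and 1.1% fell. With limma's p unadjusted and under 0.05, 3 were higher and 3 lower, where the shares over all genes were 8.91% and 6.32%. The kinase Blk rose by 0.88 on the log2 scale (limma adjusted p = 0.000649) and the receptor chain Cd79a by 0.31 (limma adjusted p = 0.0468), while Vpreb1, a surrogate light chain of the pre-B cell receptor, fell by 0.68 (limma adjusted p = 0.00976). The call of Cd79a was lost whichever array was left out (adjusted p 0.0678 to 0.152), and that of Vpreb1 without pMIG replicate 2 (0.0502) or pMIG replicate 3 (0.0688). Ebf1 (-0.25; limma adjusted p = 0.142) and Igll1 (-0.19; limma adjusted p = 0.227) did not pass, with each Blnk sample below every pMIG sample. The part of these stage markers in the values below was not tested. Intensities are given on the linear scale as deposited, and a fold change is the mean log2 intensity of Blnk samples less that of pMIG samples. A gene was said to rise or fall where limma's p, adjusted by Benjamini-Hochberg over all 19938 genes, was below 0.05.

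All 10 genes had a higher mean in Blnk samples, apart from Inpp5d under repeated quantile normalization, and 3 of them rose: the phosphatase Ptpn22 and the receptors Cd72 and Pecam1. None fell, and at an unadjusted p under 0.05 in limma 8 were higher and 0 lower. Over all genes tested, 2.51% rose and 1.1% fell, and at an unadjusted p under 0.05 in limma 8.91% were higher and 6.32% lower. The median log2 fold change of the 10 was 0.32, where that of all genes was 0, and the 10 ranged from 0.05 for Inpp5d to 0.90 for Ptpn22. In 7 of the 10 every Blnk sample was above every pMIG sample, which held for 11.8% of all genes. These counts describe a set of genes chosen with results of these data known. In sorted bulk samples, a shift in the mix of cells and a shift of the RNA within each cell cannot be told apart.

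**Figure D1:**
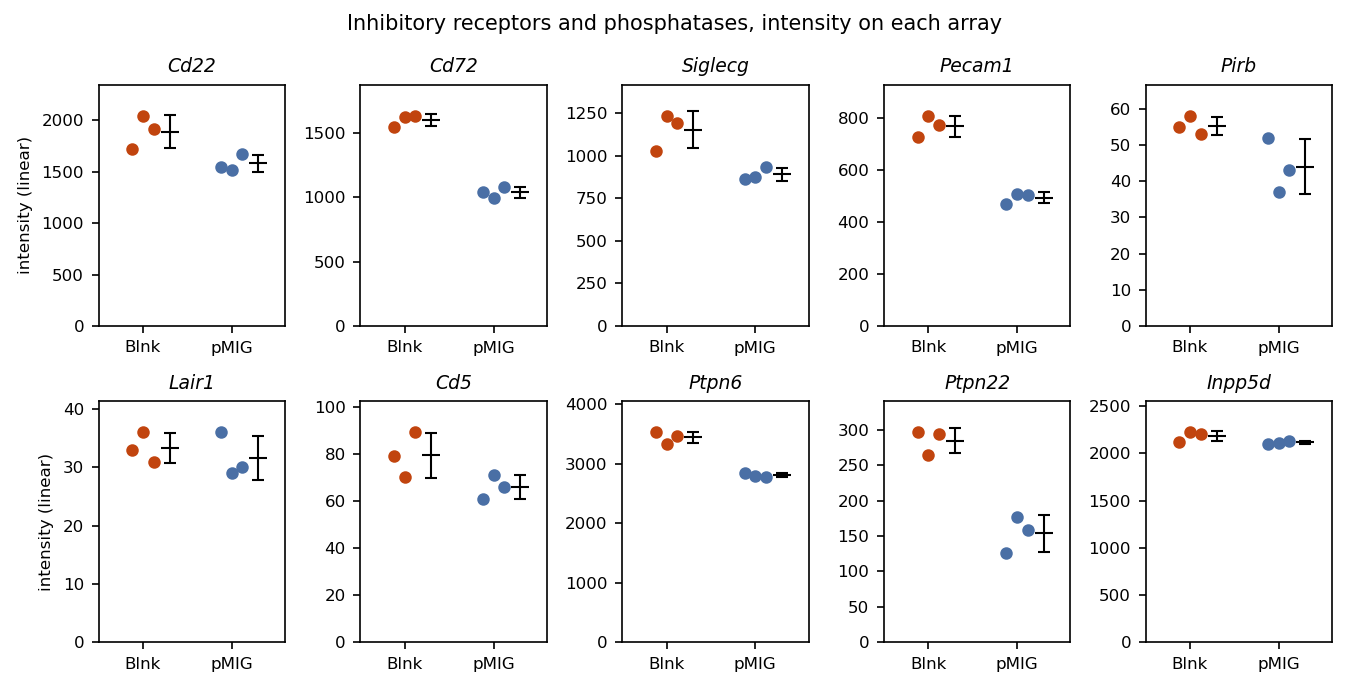
Intensity of the 10 genes on each array (linear scale, each panel from 0). Points are arrays, with Blnk samples on the left and pMIG samples on the right of each panel, and the bar is the mean with its SD (n = 3 each). Groups are apart in all panels except Lair1, Cd5 and Inpp5d.

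Of the receptors, Cd72 and Pecam1 rose. Cd72, a C-type lectin-like receptor of B cells whose ITIM recruits Ptpn6, had intensities of 1550, 1626 and 1633 in Blnk samples, against 1043, 993 and 1078 in pMIG samples. The 2 groups stayed far apart relative to their spread, at 1603 ± 46.0 in Blnk and 1038 ± 42.7 in pMIG samples (SD, n = 3 each). This was a log2 fold change of 0.63 (SE 0.0681, 95% interval 0.47 to 0.79; limma adjusted p = 0.00247), and 215 of all genes had a higher fold change. Pecam1 (CD31), an adhesion receptor with ITIMs that is found on many blood cells and on endothelium, had 725, 806 and 770 in Blnk samples, against 467, 507 and 504 in pMIG samples. Every Blnk sample was thus well above the highest pMIG sample, and the log2 fold change was 0.64 (SE 0.0741, 95% interval 0.47 to 0.81; limma adjusted p = 0.00339). Both genes passed with any 1 array left out, with adjusted p of 0.0133 to 0.0233 for Cd72 and 0.0138 to 0.0278 for Pecam1.

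The sialic acid-binding receptors were higher in each Blnk sample without passing the test. Siglecg, which restrains calcium signalling in B-1 cells, had 1029, 1235 and 1195 in Blnk samples, against 867, 874 and 937 in pMIG samples. Blnk sample 1 was the lowest of its group and the nearest to the pMIG samples. The log2 fold change was 0.37 (95% interval 0.16 to 0.57, limma adjusted p = 0.0757), and without Blnk replicate 1 it was 0.45 and passed (adjusted p = 0.0460). With any other array left out it did not pass (limma adjusted p 0.173 to 0.2305). Cd22, the best studied ITIM receptor of B cells, had 1719, 2043 and 1912 in Blnk samples, against 1549, 1522 and 1676 in pMIG samples. Here the lowest Blnk sample was just above the highest pMIG sample, and the log2 fold change was 0.26 (95% interval 0.06 to 0.45; limma adjusted p = 0.200). The interval of Cd22 ended below the lower bound of Cd72, a fellow partner of Ptpn6; the difference between the 2 genes was not tested.

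The remaining receptors were dim. Pirb, an inhibitory receptor for class I molecules on B and myeloid cells, had 55, 58 and 53 in Blnk samples, against 52, 37 and 43 in pMIG samples. All 6 values lay below the array medians, and the groups were separated by a single unit. Its log2 fold change was 0.34 (95% interval 0.06 to 0.63; limma adjusted p = 0.226). Lair1, a collagen receptor with ITIMs, had 33, 36 and 31 in Blnk samples, against 36, 29 and 30 in pMIG samples, also below the medians and with overlapping groups (log2 fold change 0.08, 95% interval -0.16 to 0.32; limma adjusted p = 0.803). Cd5, a T cell antigen that also marks B-1 cells and restrains antigen receptor signalling, had 79, 70 and 89 in Blnk samples, against 61, 71 and 66 in pMIG samples. The groups overlapped between Blnk sample 2 and pMIG sample 2, and the log2 fold change was 0.26 (95% interval 0.02 to 0.50; limma adjusted p = 0.290). At signals this low little can be said of a change: the deposited values are whole numbers, so a step of 1 is itself a visible share of the value. There were 2 further probes that list Pirb together with its near relatives of the Pira group, and these were not used.

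Of the 3 phosphatases, Ptpn22 rose, and Ptpn6 and Inpp5d did not pass. Ptpn22 had 296, 264 and 294 in Blnk samples, against 126, 177 and 159 in pMIG samples. Its log2 fold change of 0.90 was the highest of the 10 (SE 0.127, 95% interval 0.60 to 1.19; limma adjusted p = 0.00886), and 105 of all genes had a higher fold change. The pMIG samples were the more scattered, at 154 ± 25.9, where Blnk samples averaged 285 ± 17.9 (SD, n = 3 each). It no longer passed without Blnk replicate 1 (adjusted p = 0.0668), Blnk replicate 3 (0.0661) or pMIG replicate 3 (0.0589), while the fold change lay between 0.76 and 1.01 with any array left out. Nor did Ptpn22 pass with replicate number added to the fit as a block (limma adjusted p = 0.0601).

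Ptpn6, the phosphatase that Cd22 and Cd72 recruit, was bright and just missed the threshold. It had 3529, 3341 and 3476 in Blnk samples, against 2846, 2796 and 2789 in pMIG samples. The groups were apart by far more than their spread, with a log2 fold change of 0.29 (SE 0.0637, 95% interval 0.15 to 0.44) and a limma adjusted p of 0.0508. Ptpn6 passed under 5 of the 14 alternatives described below. With any 1 array left out it did not pass (limma adjusted p 0.104 to 0.173), nor with quantile normalization repeated (0.101). Inpp5d, the lipid phosphatase, had 2124, 2221 and 2209 in Blnk samples, against 2100, 2111 and 2135 in pMIG samples. These overlapped, with a log2 fold change of 0.05 (SE 0.0629, 95% interval -0.10 to 0.19; limma adjusted p = 0.809), an interval that lies below that of Ptpn22 and overlaps that of Ptpn6. With quantile normalization repeated, the fold change of Inpp5d was -0.01 (adjusted p = 0.966), so it has no settled direction.

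**Figure D2:**
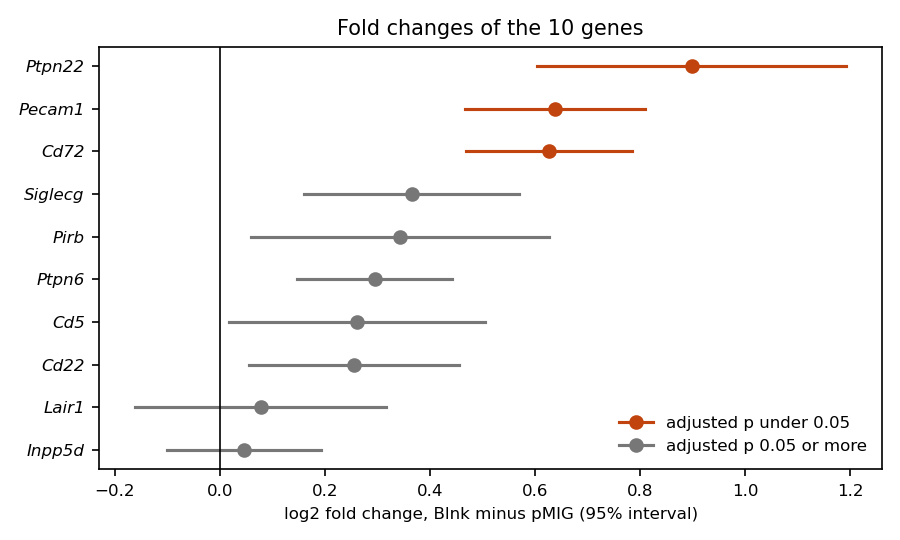
Log2 fold change, Blnk minus pMIG, of the 10 genes with 95% intervals from limma (n = 3 each). Ptpn22, Pecam1 and Cd72 have adjusted p under 0.05, and the intervals of Lair1 and Inpp5d span 0.

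The distance from the threshold was examined with 14 alternatives, of which 6 left out 1 array each. Cd72 and Pecam1 passed under all 14, and Ptpn22 under 10. Ptpn6 passed under 5 and Siglecg under 4, and Cd22, Cd5 and Inpp5d under 0 of 14 and Pirb and Lair1 under 0 of 13, since both were removed by the filter on dim genes.

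**Figure D3:**
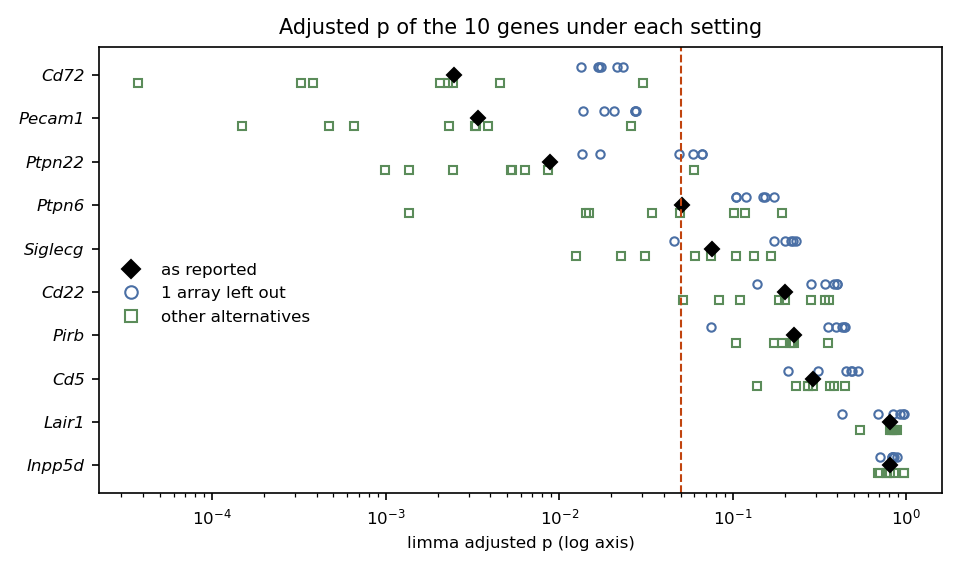
Limma adjusted p (log axis) of each of the 10 genes as reported (diamonds), with 1 array left out (circles) and under the other alternatives (squares), with a dashed line at 0.05. Cd72 and Pecam1 stay left of the line throughout, and Ptpn22, Ptpn6 and Siglecg have values on both sides.

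The promoters of these genes were read because several of them were higher together. RefSeq's table for GRCm38.p6 held 11 windows for 9 of the 10 genes, with none for Pecam1. The 250 bases before each start were searched on both strands for 5 short motifs of factors that act in B cells: GAGGAA, the core bound by PU.1 and Spi-B; TGGGAA, bound by Ikaros; CAGGTG, an E-box bound by E2A; the octamer ATGCAAAT; and the palindromic EBF1 motif. The windows of Cd72 and Ptpn22, which rose, and of Inpp5d, which did not pass, are shown with matches in capitals (GAGGAA and TGGGAA, each on either strand, so that a match on the opposite strand reads as its reverse complement).
Cd72, chr4:43454627-43454876, minus strand: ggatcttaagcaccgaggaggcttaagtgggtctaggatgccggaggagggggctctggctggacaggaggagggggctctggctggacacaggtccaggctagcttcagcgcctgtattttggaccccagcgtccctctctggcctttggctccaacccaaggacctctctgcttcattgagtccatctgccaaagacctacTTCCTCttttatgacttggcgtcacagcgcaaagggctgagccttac
Ptpn22, upstream start, chr3:103859545-103859794, plus strand: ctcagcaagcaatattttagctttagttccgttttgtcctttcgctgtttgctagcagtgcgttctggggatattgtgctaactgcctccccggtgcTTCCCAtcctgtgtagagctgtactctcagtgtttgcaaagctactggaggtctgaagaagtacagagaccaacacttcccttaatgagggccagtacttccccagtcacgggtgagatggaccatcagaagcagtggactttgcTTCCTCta
Ptpn22, downstream start, chr3:103860027-103860276, plus strand: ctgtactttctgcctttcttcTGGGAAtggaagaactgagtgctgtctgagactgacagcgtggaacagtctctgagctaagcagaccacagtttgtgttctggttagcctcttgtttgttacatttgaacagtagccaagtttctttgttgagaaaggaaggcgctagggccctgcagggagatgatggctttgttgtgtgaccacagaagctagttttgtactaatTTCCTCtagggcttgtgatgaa
Inpp5d, chr1:87620062-87620311, plus strand: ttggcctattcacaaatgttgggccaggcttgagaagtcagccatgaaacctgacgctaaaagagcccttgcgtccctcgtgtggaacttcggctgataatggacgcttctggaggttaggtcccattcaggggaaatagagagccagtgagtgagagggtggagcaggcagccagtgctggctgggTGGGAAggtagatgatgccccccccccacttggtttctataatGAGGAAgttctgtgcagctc

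All 4 of these windows held GAGGAA on one strand or the other within 50 bases of the start. It lay 47 to 42 bases before the start in Cd72, 8 to 3 and 22 to 17 bases before the starts of Ptpn22, and 20 to 15 bases before that of Inpp5d. These 4 windows were chosen for display, and the share of all windows with a match this near the start was not counted. Over the 10 genes, 8 of 11 windows held GAGGAA, in 7 of 9 genes (Cd72, Siglecg, Pirb, Lair1, Cd5, Ptpn22 and Inpp5d), and Cd22 and Ptpn6 had none. Of all 32851 windows of that length, 23.3% held it. That share is per window rather than per gene, the 2 windows of Siglecg overlap, and the difference was not tested. TGGGAA was present in 7 of 11 windows and in 21.6% of all windows, and CAGGTG in 4 of 11 and in 17.2%. The EBF1 motif was present in Cd22 alone, 49 to 40 bases before its start, and in 0.779% of all windows, and ATGCAAAT was present in 0 of 11 and in 1.6%. A match is a run of letters and does not show binding. Genes with GAGGAA included both Ptpn22, with the highest fold change of the 10, and Inpp5d, with the lowest. A link between motif and fold change was not tested.

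Fcrl5, Pdcd1 and Btla, and narrowly Ceacam1, inhibitory receptors outside the 10, had higher fold changes than any of the 10. Of 24 such receptors measured, 7 rose and 0 fell (7 higher and 1 lower with limma's p unadjusted and under 0.05), with a median log2 fold change of 0.15. Among all genes tested 2.51% rose and 1.1% fell, and without adjustment 8.91% were higher and 6.32% lower. Fcrl5, a B cell relative of the Fc receptors, had 398, 567 and 530 in Blnk samples, against 85, 79 and 87 in pMIG samples (log2 fold change 2.56; limma adjusted p = 6.82e-05). Pdcd1 (PD-1), a checkpoint receptor that recruits the phosphatase Ptpn11, had 138, 157 and 123 in Blnk samples, against 44, 42 and 41 in pMIG samples (log2 fold change 1.71; limma adjusted p = 0.000113). Blnk samples thus stood above the array medians for Pdcd1 and pMIG samples below them. Btla, a checkpoint receptor of B and T cells, had 314, 370 and 357 in Blnk samples, against 127, 119 and 126 in pMIG samples (log2 fold change 1.48; limma adjusted p = 0.000101). Ceacam1, an adhesion receptor with ITIMs, rose by 0.91 (limma adjusted p = 0.000945) and Fcgr2b, the inhibitory IgG receptor that recruits Inpp5d, by 0.51 (limma adjusted p = 0.00981). The other 2 that rose, outside the rule for named genes, were Cd33 (0.48) and Tigit (0.37), and neither passed with any 1 array left out. Without Blnk replicate 2 or pMIG replicate 3, 4 of the 24 rose.

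Other phosphatases of receptor signalling went in both directions. Of 25 measured, 3 rose and 1 fell (11 higher and 2 lower with limma's p unadjusted and under 0.05), with a median log2 fold change of 0.16. The shares over all genes were 2.51% and 1.1%, and 8.91% and 6.32% without adjustment. Ptprj (CD148), a receptor phosphatase that acts on SRC-family kinases, averaged 1675 ± 79.5 in Blnk and 906 ± 42.2 in pMIG samples (SD, n = 3 each; log2 fold change 0.89; limma adjusted p = 0.000623). Ptpn1 rose by 0.46 (limma adjusted p = 0.00821) and Ubash3b, a suppressor of antigen receptor signalling, by 0.41 (limma adjusted p = 0.0330). Leaving out any 1 array ended the call of Ubash3b (adjusted p 0.0621 to 0.145), and so did repeated quantile normalization (0.0579) and centring arrays on their medians (0.0516). Ptpn3 averaged 153 ± 16.5 in Blnk and 246 ± 22.4 in pMIG samples and fell by 0.68 (limma adjusted p = 0.0131). With the mean over its single-symbol probes, its log2 fold change was -0.44 (limma adjusted p = 0.0126). Without pMIG replicate 3, only Ptprj rose, at a count of 1, and without Blnk replicate 2 or 3 or pMIG replicate 2 or 3 the count of falls was 0. The close relatives of the 10 stood at 0.16 for Ptpn11 (SHP-2; limma adjusted p = 0.456) and 0.24 for Inppl1 (SHIP-2; limma adjusted p = 0.0997), neither passing.

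Among 18 adaptors and ubiquitin ligases of receptor signalling, 2 rose and 0 fell, with a median log2 fold change of 0.11. With limma's p unadjusted and under 0.05, 6 were higher and 2 lower. The shares over all genes were 2.51% rising and 1.1% falling, and 8.91% higher and 6.32% lower without adjustment. Themis2, an adaptor of B cell signalling, rose by 0.60 (limma adjusted p = 0.00242), with every array left out in turn. Sh2b3 (LNK), a brake on cytokine receptors, rose by 0.48 (limma adjusted p = 0.0150) but, of the arrays left out, passed only without Blnk replicate 1 (0.0164), reaching 0.0892, so that the count was 1 in each of the other 5 cases. Csk, which phosphorylates the inhibitory tyrosine of SRC-family kinases, averaged 1891 ± 21.1 in Blnk and 1760 ± 21.0 in pMIG samples (SD, n = 3 each; log2 fold change 0.10; limma adjusted p = 0.508).

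Genes that make or present ligands of these receptors had a median fold change near 0. Of 15 measured, 1 rose and 0 fell, where 2.51% of all genes rose and 1.1% fell. With limma's p unadjusted and under 0.05, 2 were higher and 1 lower, where the shares over all genes were 8.91% and 6.32%. The median log2 fold change was 0.02. This median includes collagen genes and C1qa, whose means in Blnk samples ran only from 41.7 (C1qa) to 117 (Col1a1). The gene that rose was Cmah, the enzyme that turns N-acetyl into N-glycolyl sialic acid, the form that mouse Cd22 prefers. Cmah had 638, 664 and 654 in Blnk samples, against 442, 447 and 456 in pMIG samples (log2 fold change 0.54; limma adjusted p = 0.00341), and it passed with every array left out in turn. St6gal1, the transferase that adds the linkage Cd22 binds, averaged 1844 ± 87.7 in Blnk and 1816 ± 11.6 in pMIG samples (SD, n = 3 each; log2 fold change 0.02; limma adjusted p = 0.930). Sema4d, the ligand of Cd72, stood at -0.22 (limma adjusted p = 0.255). Of 9 activating or tetraspanin coreceptors measured, 1 rose and 0 fell (4 higher and 1 lower with limma's p unadjusted and under 0.05), with a median of 0.15: Cd82, a tetraspanin, averaged 1109 ± 92.8 in Blnk and 641 ± 16.5 in pMIG samples and rose by 0.79 (limma adjusted p = 0.00182).

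**Figure D4:**
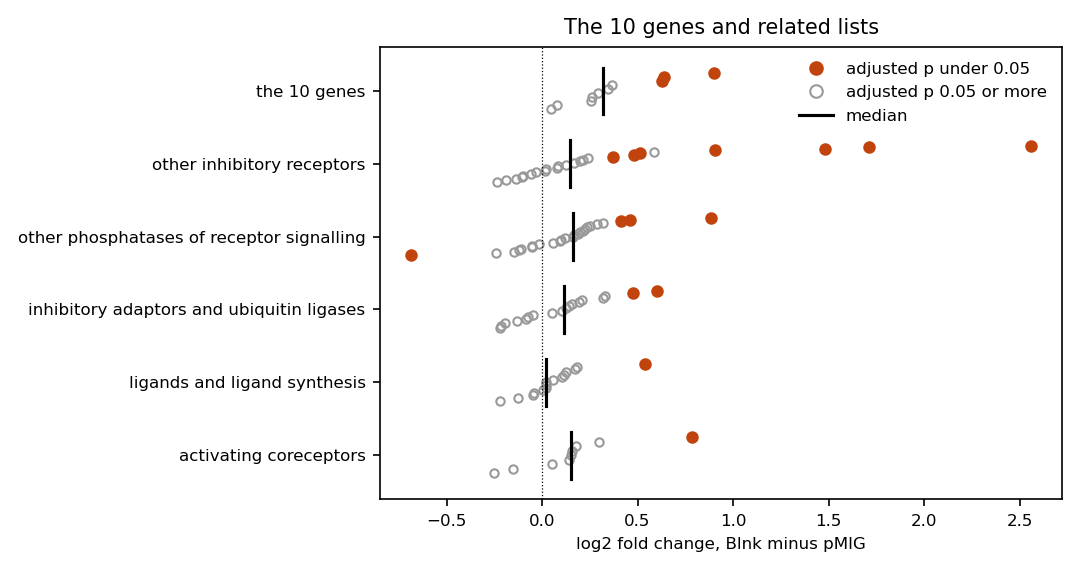
Log2 fold change, Blnk minus pMIG, of every measured gene of the 10 and of 5 related lists, with a black bar at each list's median. Filled points have adjusted p under 0.05; the furthest right is Fcrl5 at 2.56 and the furthest left is Ptpn3 at -0.68.

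Because Pecam1, Pirb, Lair1 and Cd5 also occur on other cells, markers of those cells were read beside them. Among all genes tested, 2.51% rose and 1.1% fell. By limma, 0 of 9 endothelial and stromal markers rose and 0 fell (unadjusted p was under 0.05 for 1 higher and 1 lower gene), and their summed intensity was 910 to 1030 in Blnk and 992 to 1130 in pMIG samples, with Eng the brightest (554 ± 31.0 in Blnk and 634 ± 20.8 in pMIG samples, SD, n = 3 each) and Col1a1 next (117 ± 11.0 in Blnk and 128 ± 19.4 in pMIG samples). Cdh5, which defines endothelium, averaged 47.0 ± 4.36 in Blnk and 39.3 ± 3.21 in pMIG samples (limma adjusted p = 0.248), below the array medians, with each Blnk sample above every pMIG sample. Of 6 markers of megakaryocytes and platelets 0 rose and 0 fell, with sums of 264 to 302 in Blnk and 259 to 308 in pMIG samples, led by Itga2b and Itgb3. Of 3 erythroid markers 0 rose and 0 fell, with sums of 147 to 174 in Blnk and 146 to 157 in pMIG samples, led by Epor and Alas2. No marker was listed at 0, since the lowest deposited value is 3. In these last 2 classes, and in the myeloid one, 0 markers had an unadjusted p under 0.05 in limma. The part of these cells in the values of Pecam1 was not tested. Of 12 myeloid markers 0 rose and 0 fell, with sums of 412 to 453 in Blnk and 410 to 438 in pMIG samples, and the brightest, Fcgr3, was below the array medians on average, at 62.0 ± 7.00 in Blnk and 57.0 ± 10.4 in pMIG samples (SD, n = 3 each), followed by Cebpe. Of 10 T and NK cell markers 1 rose, Cd2 (2355 ± 294 in Blnk and 1415 ± 54.6 in pMIG samples, SD, n = 3 each; log2 fold change 0.73; limma adjusted p = 0.00718), which mouse B cells also express. The T cell receptor chain Cd3e averaged 81.3 ± 9.07 in Blnk and 80.7 ± 9.29 in pMIG samples, and Cd8a 191 ± 60.8 in Blnk and 170 ± 18.7 in pMIG samples. The summed T and NK signal was 2555 to 3094 in Blnk and 1798 to 1934 in pMIG samples, mostly Cd2, and its part in the values of Cd5 was not tested.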

How the data were processed

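The deposited values are probe intensities on a linear scale, whole numbers from 3 to 22187. Per the submitters' processing notes the authors used RMA; the version was not stated there. That RMA values were returned to the linear scale and rounded is inferred from the values. Log2 was taken with nothing added. Of 35421 probes, 21789 had 1 gene symbol in the platform annotation, 1621 had several and 12011 had none. The brightest single-symbol probe stood for a gene, giving 19938 genes, and Entrez identifiers of 21698 single-symbol probes were in the GRCm38.p6 gene table.

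The 2 groups were fitted in limma 3.58.1 (R 4.3.3; lmFit, then eBayes) on group alone, without a filter, after the code had been tested on simulated data. Alternatives were a replicate block, other scalings, a filter on dim genes, another variance prior, array weights, the mean over a gene's probes, log2(intensity + 16) and leaving out each array. Precision is limited by having 6 arrays. The 10 genes and the lists were chosen with earlier results of these data known. Named genes were the 10, Blnk, up to 5 passing genes per list by smallest adjusted p, and the 2 brightest markers of other cell types; others named were chosen after their values were seen. The planned display of ITIM protein stretches was not made here. Some list entries and markers were not used here.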

Additional observations from a re-analysis of the deposited data

How the results depend on the processing

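Of the 10 genes, direction held under every alternative except for Inpp5d, which was not called and stood at -0.0097 with quantile normalization repeated. Cd72 and Pecam1 passed throughout. The alternatives fixed with the design changed the count of the 10 that rose to 5 with dim genes left out (below the 40th percentile), 5 with an intensity-dependent prior and 5 with log2(intensity + 16), where Ptpn6 and Siglecg joined. It was 4 with array weights and 4 with the mean over a gene's probes, where Ptpn6 joined. With 1 array left out it was 2 to 3, and without Blnk replicate 1 Siglecg passed and Ptpn22 did not. In each case 0 fell. Over all genes, 500 rose and 220 fell. The counts were 807 and 421 with dim genes left out, 891 and 422 with the intensity-dependent prior, 741 and 359 with log2(intensity + 16), and 593 and 300 with array weights. With 1 array left out, 195 to 304 rose and 72 to 133 fell; fewer arrays weaken the test by construction. The share of calls that were rises, 69.4%, was 55.7% with quantile normalization repeated (411 up, 327 down) and 58.9% with arrays centred on their medians (417 up, 291 down).

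The labels do not say whether same-numbered samples are pairs. Same-numbered arrays deviated from their group means with correlations of -0.187, 0.0579 and -0.12, and so few arrays cannot settle the pairing. With the replicate block 208 genes rose and 81 fell, and 2 of the 10 rose, Ptpn22 having adjusted p = 0.0601. Of the other inhibitory receptors 4 then rose (Fcgr2b at 0.0519), of the other phosphatases 1 (Ptpn1 at 0.0626) and of the adaptors 1. The cause of these changes was not tested. Signals near or below the array medians (Pirb, Lair1, Cd5) limit what can be said of those genes.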

Other observations

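The genes beside the 10 on their chromosomes did not pass the test, which 2.51% of all genes passed as rises and 1.1% as falls. With limma's p unadjusted and under 0.05, 8.91% of all genes were higher and 6.32% lower. Taking the nearest measured protein-coding gene on each side in the GRCm38.p6 gene order gave 19 distinct neighbours, of which 0 were called by limma at adjusted p under 0.05 (unadjusted p was under 0.05 for 3 higher and 1 lower), with log2 fold changes from -0.23 (Milr1, an ITIM receptor of mast cells beside Pecam1; adjusted p = 0.141) to 0.36 (Lilra6, between Pirb and Lair1; adjusted p = 0.298) and a median of 0.03. Ptpn22 lies between Bcl2l15 (0.08) and Rsbn1 (-0.12), Cd72 between Tesk1 (0.03) and the inhibitory adaptor Sit1 (0.19), and Ptpn6 between Phb2 (-0.0015) and Grcc10 (-0.03). These neighbours were chosen by position after the values of the 10 were seen.

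Among the 3 Blnk samples, Blnk transcript was 2714 in sample 1, 3022 in sample 3 and 3342 in sample 2. Cd22, Siglecg, Pecam1 and Inpp5d had that same order, 4 of the 10 genes, where 9.87% of the 19937 genes other than Blnk had it. Ptpn22 (296, 294 and 264 in samples 1, 3 and 2) and Ptpn6 (3529, 3476 and 3341) ran in the opposite order. With 3 arrays these orders are a description and were not tested.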
